A study of Mus musculus with 173 samples.

Results

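The circadian clock and its output genes are described here as a named list of 28 genes, taken by symbol and matched by Ensembl identifier to 28 of the 38561 genes of the deposited tables, of which 36639 carry a symbol. The rule that picks them is the list of names and uses no measured value, though earlier results of these data were known when the list was made. The list holds the transcriptional activators Clock, Arntl and Npas2, the repressors Per1, Per2, Per3, Cry1, Cry2, Ciart and Cipc, the nuclear receptors Nr1d1, Nr1d2, Rora and Rorb, and the D-box factors Dbp, Tef, Hlf and Nfil3. It also holds the repressors Bhlhe40 and Bhlhe41, the kinases Csnk1d and Csnk1e, the turnover factors Fbxl21 and Usp2, the outputs Wee1 and Timeless, and the cold-inducible RNA-binding proteins Rbm3 and Cirbp.

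In nearly every mammalian cell, CLOCK or NPAS2 pairs with the product of Arntl (BMAL1) on E-box DNA and switches on the Per and Cry genes, whose proteins return to the nucleus and block that pair. A second loop runs through REV-ERB proteins (Nr1d1, Nr1d2), which repress Arntl at RORE sites that ROR proteins activate, and another through DBP, TEF and HLF, which activate D-box sites that NFIL3 represses. The transcripts of one arm peak when those of the other are low, so their level in a tissue taken at one moment depends on the time of day. Glucocorticoids and feeding reset clocks outside the brain, and body temperature affects the level of Cirbp and Rbm3.

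Polyadenylated RNA was sequenced from 11 tissues of 16 mice of the C57BL/6 strain at 6 months of age. The 8 Q175 animals, 4 female and 4 male, were heterozygous for a knock-in allele of the mouse huntingtin gene with a CAG length of 175, and per the labels they were housed with Q175 mice. The 8 wild-type animals, 4 female and 4 male, carried no knock-in allele. Their labels give housing with heterozygous Q20 mice and their library names carry Q20 animal codes, although the series text calls the controls littermates, so genotype, housing and colony cannot be told apart. All 4 animals of a genotype and sex share 1 code that no other group holds. Neither sex nor genotype can thus be told apart from code and time of collection, and the labels give no time of collection. The 5 brain tissues were brainstem, cerebellum, hippocampus, hypothalamus/thalamus and corpus callosum, and the 6 others were brown adipose tissue, gonadal and intestinal white adipose tissue, gastrocnemius muscle, heart and skin. Each tissue had 8 Q175 and 8 wild-type libraries, except gonadal white adipose with 7 wild-type and skin with 6. Animals are lettered A to D within genotype and sex from the codes in the library names, and replicates F1 to F4 and M1 to M4 are the female and male libraries of a tissue as numbered in their titles.

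Library totals ran from 27978166 to 48018644 estimated counts. Of 33 tissue marker genes, 29 were highest in their own tissue and all 33 were among the 3 highest. Mean Htt was lower in Q175 than in wild type in 10 of 11 tissues, with ratios from 0.683 to 1.03. Abhd1, a hydrolase gene, lay above every wild-type library in 10 or 11 of 11 tissues in 7 Q175 animals and in 1 of 11 in Q175 male D, so the 11 libraries labelled Q175 male D go against their label in this measure. Values fell with transcript length in 7 libraries that stood apart in earlier results: brainstem WT F3, hippocampus Q175 F3 and F4, and hypothalamus/thalamus Q175 F2, F3 and M3 and WT M2, with slopes from -0.352 to -0.132. Slopes in that range were also found in corpus callosum (WT F1 -0.214, Q175 M1 -0.185 and Q175 F2 -0.135), brown adipose (WT M1 -0.260) and gonadal white adipose (WT M1 -0.140 and WT M2 -0.133). In skin WT M1 and M2 stood far from the other 12 libraries on the first principal component (115.7 and 93.7 against -26.6 to -1.21, 40.5% of the variance). In intestinal white adipose that component held 53.9% of the variance, with Q175 M2 at 147.3, WT M4 at 125.5 and WT F3 at 109.6. The other libraries of that tissue ran from -78.1 to 54.3. Markers of other cell types that moved with a comparison are given beside it.

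Levels between genes are compared in FPKM, fragments scaled by transcript length and library size, as the authors deposited them. In wild-type tissues the activator Arntl ran from 1.24 ± 0.68 FPKM in brown adipose (mean ± SD, n = 8) to 15 ± 1.91 in cerebellum (n = 8). Its partner Npas2 ran from 0.079 ± 0.047 FPKM in gastrocnemius to 5.82 ± 0.51 in hippocampus, and Clock only from 3.66 ± 0.72 in gastrocnemius to 16.4 ± 1.24 in cerebellum. Cerebellum had the highest mean for 10 of the 28 genes: Clock, Arntl, Per1, Per2, Cry1, Cry2, Nr1d2, Rora, Tef and Ciart. Of these, at least Per1, Per2 and Cry2 did not differ from the next tissue beyond their SDs. Per1 stood at 30.2 ± 8.43 FPKM against 24.1 ± 13.2 in skin. Per2 stood at 11.6 ± 3.94 against 8.74 ± 2.59 in gonadal white adipose, and Cry2 at 40.2 ± 2.64 against 38.7 ± 1.98 in hippocampus. Skin had the highest mean for the casein kinases Csnk1d and Csnk1e, which phosphorylate PER proteins, for the cell cycle kinase gene Wee1 and for both cold-inducible genes. None of these 5 skin means differed from that of the next tissue beyond their SDs. For Csnk1e (53.0 ± 21.3 FPKM, against 42.7 ± 2.28 in corpus callosum) and Wee1 (8.14 ± 5.94, against 7.15 ± 0.83 in brainstem) the skin median was below that of the next tissue.

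The widest spread between tissues was in Rorb, a ROR receptor, at 0.017 ± 0.016 FPKM in gonadal white adipose and 5.66 ± 0.53 in hypothalamus/thalamus. Fbxl21, which encodes an F-box protein that binds CRY proteins, followed from 0.083 ± 0.075 in gastrocnemius to 6.89 ± 1.32 in hypothalamus/thalamus. The narrowest was in Tef, from 51.7 ± 22.6 FPKM in intestinal white adipose to 125 ± 13.4 in cerebellum. Rbm3 had the highest level of the list, 350 ± 102 FPKM in skin against 56.2 ± 8.93 in heart. Nr1d1 ran from 25.5 ± 3.08 in brainstem to 89.7 ± 11.9 in gonadal white adipose and Dbp from 28.6 ± 5.31 in hippocampus to 87.0 ± 44.9 in gonadal white adipose. For Dbp the next tissue, skin, stood at 85.5 ± 55.8, so these neighbours in the order did not differ beyond their spread.

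**Figure D1:**
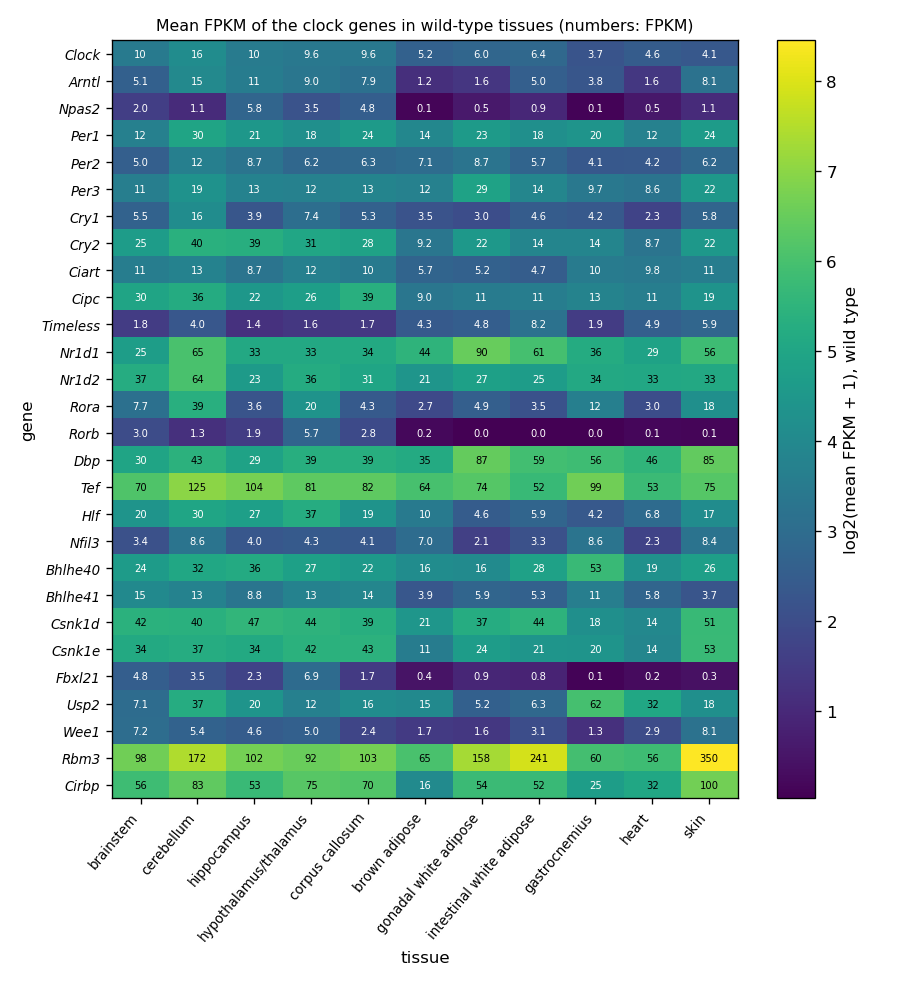
Mean FPKM of the 28 genes (rows) in the wild-type libraries of 11 tissues (columns), with the colour on a log2(FPKM + 1) scale and the FPKM printed in each cell. The cerebellum column is the brightest for Clock, Arntl and Cry2, and Rorb, Fbxl21 and Npas2 are near 0 in several tissues outside the brain.

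Between brain and other tissues of wild-type mice, limma called 25 of 28 genes at an adjusted p under 0.05, 14 higher in brain and 11 lower, among 92.2% of all genes called. Rorb was higher in brain by 5.22 on the log2 scale (SE 0.11), Fbxl21 by 2.86 (SE 0.09), Npas2 by 2.53 (SE 0.14), Hlf by 1.34 (SE 0.09) and Arntl by 1.18 (SE 0.11). Timeless, which encodes a replication fork protein, was lower in brain at -1.44 (SE 0.07), Dbp at -1.16 (SE 0.10) and Nr1d1 at -0.98 (SE 0.09). Ciart, Csnk1d and Per2 were the 3 genes not called, at -0.05, -0.03 and -0.21. On the FPKM scale the median of all genes moved by 0.30 (log2), and Per1, Per3, Nr1d2, Tef, Nfil3, Bhlhe40 and Usp2 changed sign.

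Upstream sequence is shown for 4 genes whose transcripts are described below and whose windows hold one of the known clock motifs. RefSeq windows (build GRCm38.p6) matched 23 of the 28 genes, and each window is the 250 bases before a transcript start, read 5′ to 3′ on the gene's strand with motif letters in capitals. Ciart, which encodes the E-box repressor CHRONO (chr3:95882229-95882478, minus strand), holds 3 E-boxes with the letters CACGTG, at 116, 58 and 44 bases before the start. Per1 (chr11:69098699-69098948, plus strand) holds 1 E-box at 166 bases, in the first of its 2 windows. Per3 (chr4:151044666-151044915, minus strand) holds 2 D-boxes, TTANGTAA, at 205 and 158 bases, and Nfil3 (chr13:52981040-52981289, minus strand) holds 1 RORE, TAGGTCA, at 12 bases, printed here as its opposite strand.
Ciart: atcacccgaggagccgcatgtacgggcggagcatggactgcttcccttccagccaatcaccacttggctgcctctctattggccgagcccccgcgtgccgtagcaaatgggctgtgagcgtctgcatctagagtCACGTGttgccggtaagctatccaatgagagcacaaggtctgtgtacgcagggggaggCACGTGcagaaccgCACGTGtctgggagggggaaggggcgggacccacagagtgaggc
Per1: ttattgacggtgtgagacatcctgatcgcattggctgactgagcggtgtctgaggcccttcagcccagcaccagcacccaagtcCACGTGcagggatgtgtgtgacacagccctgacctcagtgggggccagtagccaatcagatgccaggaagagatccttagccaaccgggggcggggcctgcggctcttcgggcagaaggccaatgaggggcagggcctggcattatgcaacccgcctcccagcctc
Per3: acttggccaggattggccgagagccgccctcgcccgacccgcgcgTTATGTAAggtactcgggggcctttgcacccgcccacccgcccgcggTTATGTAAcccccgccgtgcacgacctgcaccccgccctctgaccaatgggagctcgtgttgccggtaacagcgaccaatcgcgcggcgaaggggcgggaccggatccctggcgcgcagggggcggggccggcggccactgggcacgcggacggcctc
Nfil3: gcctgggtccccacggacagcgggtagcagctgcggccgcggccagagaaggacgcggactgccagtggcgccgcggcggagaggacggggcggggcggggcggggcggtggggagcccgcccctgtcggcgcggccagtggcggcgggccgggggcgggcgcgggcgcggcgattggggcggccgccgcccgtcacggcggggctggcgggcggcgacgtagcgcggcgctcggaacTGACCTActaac

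Both strands were searched, and CACGTG and TGACGTCA read the same on both. The E-box was in windows of 6 of 23 genes (26.1%: Per1, Cry1, Tef, Bhlhe41, Ciart and Cipc) and in 6.86% of 27025 genes with such windows. The D-box was in 3 of 23 (13%: Per3, Rorb and Timeless) against 2.44%, the RORE in 1 of 23 (4.35%: Nfil3) against 2.55%, and the cAMP response element TGACGTCA in 1 of 23 (4.35%: Hlf) against 1.77%. These matches describe the letters of the windows only.

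At least 1 gene of the list differed between males and females in each of the 11 tissues. Every call of the activators Arntl, Npas2 and Clock was higher in males, and every call of a Per or Cry gene, Nr1d2, Ciart or a D-box activator was lower. No activator was called in hippocampus, hypothalamus/thalamus, corpus callosum or intestinal white adipose, and Clock, Per1, Per2, Cry1, Cry2 and Hlf were called in no brain tissue. Values are given as CPM, counts scaled by the TMM library size, and differences as log2 fold changes of male over female from edgeR with genotype as a term. A gene is called at a Benjamini-Hochberg adjusted p under 0.05 over all genes of the tissue. Of 305 gene and tissue pairs tested, 86 were called, 20 higher and 66 lower in males. Each of the 86 had the same sign in the wild-type libraries alone and in the Q175 libraries alone, which are parts of the same data. Rorb was not tested in gastrocnemius and intestinal white adipose nor Fbxl21 in gastrocnemius, where they did not pass the filter on low counts.

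In the brain the called genes were few and the background low. Cerebellum had 8 of 28 genes called (background 0.456% of all genes), 2 higher in males (0.268%) and 6 lower (0.187%). Brainstem had 4 (0.109%), 1 higher (0.0423%) and 3 lower (0.0664%). Hippocampus had 3 lower (0.0614%) among 0.092% called in both directions and 0.0307% higher. Corpus callosum had 3 lower (0.0484%, with 0.0786% in both and 0.0302% higher), and hypothalamus/thalamus 1 lower (0.0538%, with 0.102% in both and 0.0478% higher). Among the other tissues the background was higher in all but intestinal white adipose. Heart had 17 of 28 called (11.4%), 3 higher (6.19%) and 14 lower (5.21%). Gonadal white adipose had 17 (29.8%), 4 higher (14.8%) and 13 lower (15%). Brown adipose had 12 (8.7%), 4 higher (4.19%) and 8 lower (4.52%). Gastrocnemius had 11 of 26 (14.1%), 4 higher (7.26%) and 7 lower (6.81%). Skin had 8 of 28 (1.82%), 2 higher (0.777%) and 6 lower (1.04%). Intestinal white adipose had 2 of 27 called (0.162%), both lower (0.0479%), with 0.114% higher. The median log2 fold change of the list lay between -0.44 in gonadal white adipose and -0.01 in hypothalamus/thalamus, while that of all genes lay between -0.03 and 0.03.

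**Figure D2:**
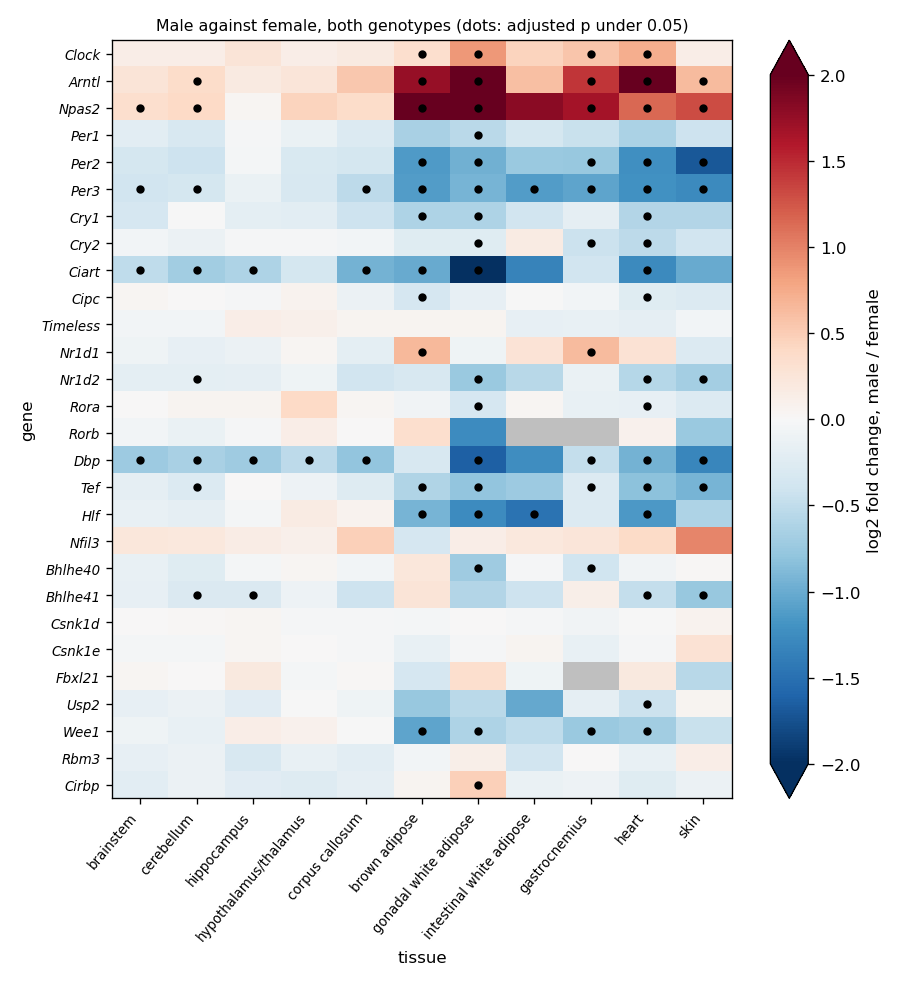
Log2 fold change of male over female (colour, from -2 to 2) for the 28 genes (rows) in 11 tissues (columns), both genotypes together. Black dots mark the 86 calls, and grey cells were not tested. The rows of Clock, Arntl and Npas2 are red across the tissues, and those of Per3, Dbp, Ciart and Nr1d2 are blue.

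Of the activators Arntl held the largest single differences, in heart and gonadal white adipose, and was above 0 in 11 of 11 tissues and called in 6. In heart its lowest, median and highest values were 0.426, 1 and 1.78 CPM in the 8 females and 4.48, 9.26 and 18.9 CPM in the 8 males. The groups did not overlap, and the log2 fold change was 3.15 (SE 0.36, adjusted p = 1.01e-04), which is 8.90-fold. In gonadal white adipose the females ran from 0.899 over 1.43 to 2.23 CPM and the males from 4.56 over 9.82 to 18.1, again without overlap (log2 2.68, SE 0.25, adjusted p = 5.43e-06). In cerebellum the difference was small and the groups still separate, with 35.8, 38.3 and 42.5 CPM in females and 44.5, 50.2 and 56.3 in males (log2 0.37, SE 0.05, adjusted p = 1.92e-04). It was also called in brown adipose (1.74), gastrocnemius (1.43) and skin (0.64), the last lost at an adjusted p of 0.054 without the library Q175 F3.

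Npas2, the alternative partner of BMAL1, was above 0 in 11 tissues and called in 7, with a median over tissues of 1.15 against 0.60 for Arntl. Gonadal white adipose showed 0.327, 0.825 and 1.74 CPM in females and 2.40, 3.26 and 7.92 in males, with no overlap (log2 2.12, SE 0.34, adjusted p = 3.61e-04). The other calls were brown adipose (2.45), gastrocnemius (1.66), skin (1.31), heart (1.15), cerebellum (0.40) and brainstem (0.33), with the female median at 0.102 CPM in brown adipose and 0.213 CPM in gastrocnemius. Clock was above 0 in 11 tissues and called in 4. In heart it ran from 21.6 over 25.5 to 29.4 CPM in females and from 35 over 41 to 51.1 in males, without overlap (log2 0.72, SE 0.08, adjusted p = 4.42e-05), and the others were gonadal white adipose (0.86), gastrocnemius (0.56) and brown adipose (0.34).

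**Figure D3:**
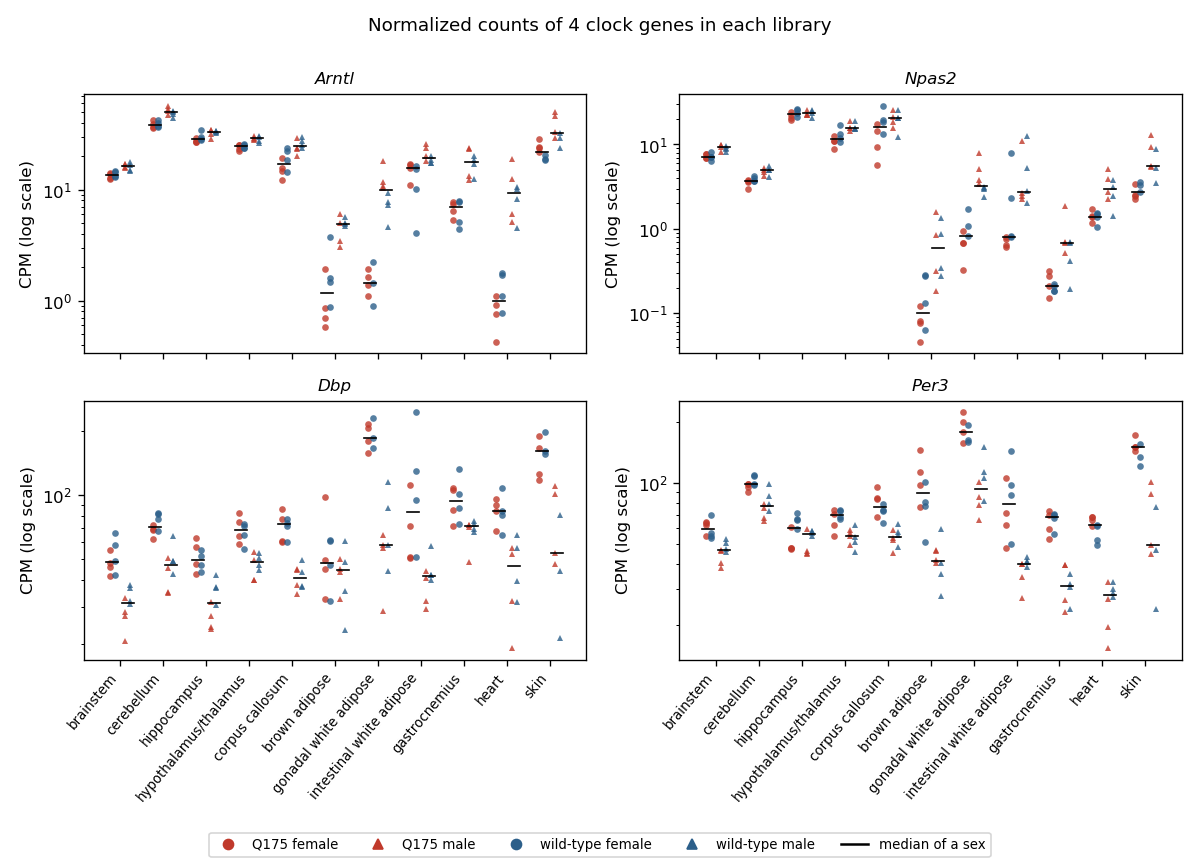
CPM on a log scale of Arntl, Npas2, Dbp and Per3 in each library of the 11 tissues. Circles are females and triangles males, red Q175 and blue wild type, and black lines the median of a sex. In heart the 8 male Arntl points lie at 4.48 CPM or above and the 8 female points at 1.78 or below, and for Dbp in corpus callosum the order is turned.

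Among the repressors of the main loop, Per3 was below 0 in 11 tissues and called lower in 9. In heart it ran from 49.8 over 62 to 68.2 CPM in females and from 15.4 over 27.9 to 32.6 in males, without overlap (log2 -1.21, SE 0.14, adjusted p = 9.08e-05). The other calls were skin (-1.28), brown adipose (-1.12), intestinal white adipose (-1.12), gastrocnemius (-1.05), gonadal white adipose (-0.93), corpus callosum (-0.52), brainstem (-0.38) and cerebellum (-0.36). Per2 was below 0 in 11 tissues and called in 5: skin (-1.69), heart (-1.23), brown adipose (-1.13), gonadal white adipose (-0.95) and gastrocnemius (-0.75). In skin the females ran from 18.6 over 71.9 to 78.8 CPM and the males from 8.54 over 16.6 to 32, so the groups overlapped. Per1 was below 0 in 11 tissues but called only in gonadal white adipose (-0.54).

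Ciart, whose window holds the 3 E-boxes shown above, was below 0 in 11 tissues and called in 7. In gonadal white adipose it ran from 10.3 over 14.8 to 22.3 CPM in females and from 1.44 over 2.96 to 6.37 in males (log2 -2.21, SE 0.27, adjusted p = 5.42e-05). In cerebellum it ran from 18.6 over 21.1 to 23.3 CPM in females and from 10.5 over 13 to 15.6 in males (log2 -0.69, SE 0.07, adjusted p = 3.40e-05). Neither pair of groups overlapped. The other calls were heart (-1.28, lost at an adjusted p of 0.055 without WT F4), brown adipose (-1), corpus callosum (-0.94), hippocampus (-0.61) and brainstem (-0.51).

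Cry1 was below 0 in 11 tissues and called lower in gonadal white adipose (-0.62), brown adipose (-0.62) and heart (-0.58), and Cry2 was called in heart (-0.52), gastrocnemius (-0.43) and gonadal white adipose (-0.24). Cry2 in heart ran from 35.8 over 39.4 to 42.8 CPM in females and from 20.8 over 28.3 to 31 in males, without overlap. Cipc, which encodes a repressor that binds CLOCK, was called lower in brown adipose (-0.33) and heart (-0.24).

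The nuclear receptors split. Nr1d2 was below 0 in 11 tissues and called lower in gonadal white adipose (-0.74), skin (-0.69), heart (-0.57) and cerebellum (-0.20), and in heart it ran from 149 over 177 to 184 CPM in females and from 91.1 over 122 to 133 in males. Its paralogue Nr1d1 was called higher in males, in brown adipose (0.65, lost at an adjusted p of 0.051 without Q175 F1) and gastrocnemius (0.64). Over the 11 tissues Nr1d1 was above 0 in 5 and below 0 in 6, with a median of -0.09. In brown adipose Nr1d1 ran from 63.1 over 83.8 to 120 CPM in females and from 79.3 over 150 to 184 in males, with overlap. Rora was called lower in gonadal white adipose (-0.34) and heart (-0.17).

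Dbp, the D-box activator, was below 0 in 11 tissues and called lower in 9, including all 5 brain tissues. In corpus callosum it ran from 60.1 over 73.1 to 85.9 CPM in females and from 34.4 over 40.9 to 49.6 in males (log2 -0.79, SE 0.09, adjusted p = 6.92e-04). In brainstem it ran from 41.8 over 48.4 to 66.6 CPM in females and from 20.7 over 31.4 to 38 in males (log2 -0.73, SE 0.10, adjusted p = 0.0024). Neither pair overlapped. The largest difference was in gonadal white adipose, with 158, 186 and 230 CPM in females and 28.5, 58.2 and 115 in males (log2 -1.63, SE 0.21, adjusted p = 8.99e-05). The other calls were skin (-1.31), heart (-0.94), hippocampus (-0.71), cerebellum (-0.65), hypothalamus/thalamus (-0.52) and gastrocnemius (-0.47). The hippocampal call was lost without Q175 M1, M3 or M4 (adjusted p up to 0.058) and the hypothalamic one without WT F1, F2 or M3 (up to 0.057).

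Tef and Hlf, the relatives of Dbp, went the same way. Tef was called lower in skin (-0.93), heart (-0.82), gonadal white adipose (-0.79), brown adipose (-0.60), cerebellum (-0.28) and gastrocnemius (-0.27), and in heart it ran from 190 over 236 to 247 CPM in females and from 85.9 over 135 to 164 in males. Hlf was called lower in intestinal white adipose (-1.48), gonadal white adipose (-1.26), heart (-1.16) and brown adipose (-0.93). In heart Hlf ran from 42.2 over 51.0 to 56.5 CPM in females and from 13.5 over 24.3 to 30.5 in males, without overlap. Nfil3, their opponent at D-boxes, was called in no tissue.

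Among the E-box repressors, Bhlhe41 was called lower in skin (-0.76), heart (-0.48), cerebellum (-0.29) and hippocampus (-0.29), and Bhlhe40 in gonadal white adipose (-0.71) and gastrocnemius (-0.40, adjusted p = 0.052 without WT F1). Wee1, a kinase gene that the E-box loop drives, was called lower in brown adipose (-1.06), gastrocnemius (-0.75), heart (-0.70) and gonadal white adipose (-0.62). In brown adipose Wee1 ran from 3.64 over 4.22 to 5.27 CPM in females and from 1.70 over 2.11 to 2.29 in males, without overlap. Usp2, a deubiquitinase gene under clock control, was called lower in heart (-0.42). Cirbp was called higher in gonadal white adipose (0.47), a call lost without Q175 F2, F4 or M1 or WT M4 (adjusted p up to 0.056). Rorb, Nfil3, Csnk1d, Csnk1e, Fbxl21, Timeless and Rbm3 were called in no tissue.

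Of the 86 calls, 51 kept their call whichever single library was left out, and 20 lost it with most of the libraries left out in turn. These 20, each with the highest adjusted p, were Npas2 (0.146), Per3 (0.102) and Ciart (0.090) in brainstem, Bhlhe41 (0.079) and Ciart (0.093) in hippocampus, and Clock (0.095), Per2 (0.071) and Ciart (0.094) in brown adipose. Likewise lost were Cry2 (0.095), Wee1 (0.089) and Bhlhe40 (0.094) in gonadal white adipose, both calls in intestinal white adipose (Hlf 0.143, Per3 0.093), Per2 in gastrocnemius (0.067), Per2 (0.083), Cipc (0.084) and Bhlhe41 (0.070) in heart, and Dbp (0.097), Tef (0.094) and Nr1d2 (0.076) in skin. Lost with fewer libraries, beside those named above, were Npas2 (0.061), Per2 (0.067) and Bhlhe41 (0.067) in skin, Per3 in corpus callosum (0.078), Nr1d1 in gastrocnemius (0.066), Per1 (0.066) and Rora (0.057) in gonadal white adipose and Rora in heart (0.075). Without the 2 skin libraries that stood apart, Per2 (0.101), Dbp (0.063), Tef (0.059) and Bhlhe41 (0.053) lost their call there. Without the library that stood apart in brainstem Npas2 had an adjusted p of 0.072, and without the 2 in hippocampus Ciart stood at 0.097. Without the libraries of Q175 male D, which went against their label in Abhd1, 58 of the 86 kept their call and 28 lost it. In the wild-type and Q175 libraries alone, with 4 animals a sex, edgeR called 20 and 37 of the 86. No gene of the 305 pairs passed the test of a different Q175 change in the 2 sexes, while 20 had an unadjusted p under 0.05, and that test called 0.231% of all genes in gonadal white adipose and 0% in each other tissue. At that unadjusted p, all genes ran from 244 of 16686 in intestinal white adipose (0 members) to 3532 of 16298 in hippocampus (3 of 28 members). Skin held the most members, 5 of 28, beside 2237 of 16482 genes.

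The animals were also compared with 1 value each, the log2 CPM of an animal over its tissues relative to the mean animal, in limma with sex and genotype. This comparison was added after the data were seen, and 16 values stand for 16 animals. It called 12 of 28 genes between the sexes (background 4.09%), 3 higher in males and 9 lower. Arntl was higher by 1.07 (SE 0.10, adjusted p = 1.39e-05), Npas2 by 1.01 (SE 0.14) and Clock by 0.35 (SE 0.05). Lower were Ciart (-1, SE 0.17), Dbp (-0.85, SE 0.11), Per3 (-0.77, SE 0.07), Hlf (-0.53, SE 0.06), Tef (-0.45, SE 0.05), Wee1 (-0.38), Nr1d2 (-0.37), Usp2 (-0.34) and Cry2 (-0.18). Not called were Per2 at -0.73 (adjusted p = 0.059), Cry1 at -0.36 (0.056) and Per1 at -0.38 (0.215). The call of Wee1 was lost without 12 of the 16 animals and that of Usp2 without 7.

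All 8 males lay above all 8 females for Clock, Arntl and Npas2, and all 8 lay below for Per3, Cry2, Nr1d2, Dbp, Tef, Hlf and Ciart, 10 of 28 genes against 0.939% of all genes. Arntl values ran from -0.71 over -0.58 to -0.25 in females and from 0.29 over 0.50 to 0.91 in males. Dbp values ran from 0.18 over 0.45 to 0.72 in females and from -0.89 over -0.34 to -0.11 in males. The gap between the sexes was narrow for some of the 10, with the nearest female and male at -0.01 and 0.05 for Clock, 0.01 and 0.13 for Npas2, -0.0033 and -0.027 for Cry2 and 0.34 and 0.10 for Ciart.

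The sexes differed more outside the brain for 9 of 28 genes, tested as the sex difference in brain minus that in the other tissues (background 2.94%). For Arntl the sex difference was 0.31 (SE 0.05) in brain and 1.73 (SE 0.15) elsewhere, and the difference between them -1.42 (SE 0.13, adjusted p = 2.85e-05). The others were Npas2 (-1.28), Clock (-0.32), Hlf (0.94), Per2 (0.81), Per3 (0.79), Wee1 (0.67), Tef (0.53) and Nr1d2 (0.29), each with the smaller size in brain. Dbp was not among them, with -0.68 (SE 0.07) in brain and -0.98 (SE 0.17) elsewhere. In brain alone 6 genes were called (background 0.227%): Arntl, Npas2 (0.32), Per3 (-0.35), Dbp, Bhlhe41 (-0.26) and Ciart (-0.63), and in the other tissues alone 15 (5.74%).

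Of 30 further clock regulators and outputs, the same fits called genes between the sexes in 6 tissues: 5 lower in brown adipose (background 8.7%), 4 higher and 5 lower in gonadal white adipose (29.8%), 1 higher and 5 lower in heart (11.4%), 4 higher and 1 lower in gastrocnemius (14.1%), 2 lower in skin (1.82%) and 1 lower in hippocampus (0.092%). The counts in gonadal white adipose and gastrocnemius are near the background. Tspan4, which encodes a tetraspanin, was lower in males in skin (-0.97), heart (-0.77), gastrocnemius (-0.74), gonadal white adipose (-0.70) and hippocampus (-0.47). Noct, a rhythmic phosphatase gene, was lower in brown adipose (-0.97), and Nampt and Sirt1 of NAD metabolism in heart (-0.33 and -0.22).

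Other lists moved with sex in some tissues, and their part in the result was not tested. In gonadal white adipose 5 of 10 glucocorticoid response genes were called higher in males (background 14.8%) and 1 lower (15%). The epididymis genes summed to up to 3032 CPM in Q175 males and to at most 4.51 CPM in every other library, wild-type males included. In brown adipose 3 of 7 genes of meningeal fibroblasts and 2 of 7 of microglia and macrophages were higher in males (background 4.19%). In heart 3 of 11 immediate early genes were lower in males (background 5.21%). In the 5 brain tissues none of the immediate early, glucocorticoid response and heat shock genes was called between the sexes. Of all genes, only 0.0786% (corpus callosum) to 0.456% (cerebellum) were called there, so few calls could be looked for in lists of this size. In bulk tissue fewer cells of a type and less RNA per cell cannot be told apart.

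Between genotypes few genes of the list were called, in 4 tissues, and 13 of the 16 calls were lower in Q175. Log2 fold changes here are Q175 over wild type with sex as a term. Of the 305 pairs, 16 were called, 3 higher and 13 lower in Q175: 3 of 28 genes in cerebellum (background 16.1%), 3 in hippocampus (4.56%), 7 in gonadal white adipose (32.1%) and 3 in skin (6.53%). The shares in cerebellum and gonadal white adipose lie below those of all genes. Of all genes called, those lower in Q175 were 1300 of 2572 in cerebellum, 423 of 743 in hippocampus, 2681 of 5148 in gonadal white adipose and 665 of 1077 in skin. No gene of the list was called in brainstem (3.07%), hypothalamus/thalamus (0.574%), corpus callosum (0.0544%), brown adipose (5.41%), intestinal white adipose (0%), gastrocnemius (0.0213%) and heart (0.0549%), where DESeq2 called 0 as well. Members and all genes with an unadjusted p under 0.05 were 3 of 28 and 2357 of 16563 in brainstem, 5 of 28 and 2286 of 16739 in hypothalamus/thalamus, and 4 of 28 and 3150 of 16540 in corpus callosum. They were 3 of 28 and 2512 of 14590 in brown adipose, 3 of 27 and 1297 of 16686 in intestinal white adipose, 1 of 26 and 888 of 14090 in gastrocnemius, and 1 of 28 and 1139 of 14567 in heart. The fit with voom over all tissues called 7 in intestinal white adipose, 1 in hypothalamus/thalamus, 1 in brown adipose and 0 in the other 4. The list's median lay between -0.24 in intestinal white adipose and 0.16 in skin.

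**Figure D4:**
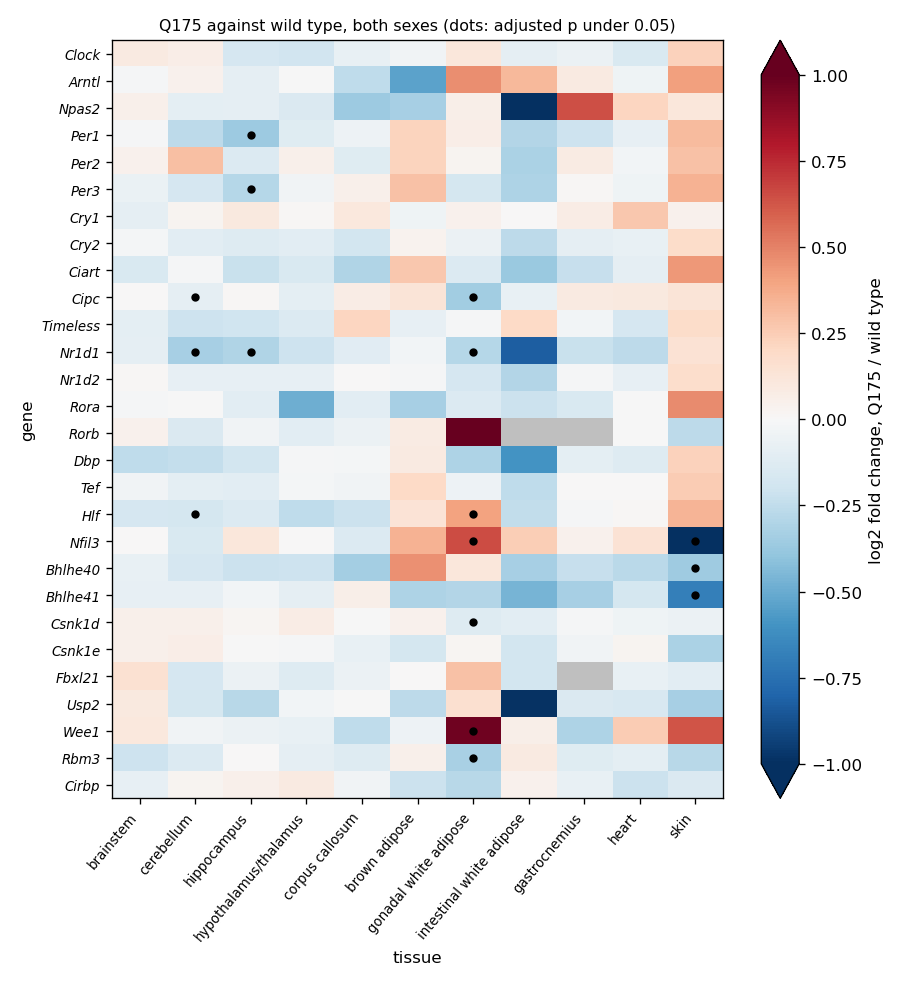
Log2 fold change of Q175 over wild type (colour, from -1 to 1) for the 28 genes (rows) in 11 tissues (columns), both sexes together. Black dots mark the 16 calls, and grey cells were not tested. The Nr1d1 row is blue in all 5 brain columns, and the dots lie in cerebellum, hippocampus, gonadal white adipose and skin only.

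In cerebellum the heme receptor gene Nr1d1 fell, with 113, 138 and 148 CPM as lowest, median and highest in Q175 and 141, 174 and 192 in wild type (log2 -0.33, SE 0.05, adjusted p = 7.0e-05). Hlf ran from 122 over 140 to 170 CPM in Q175 and from 145 over 163 to 175 in wild type (-0.17, SE 0.04, adjusted p = 0.0091). Cipc ran from 135 over 140 to 145 CPM in Q175 and from 142 over 149 to 156 in wild type (-0.09, SE 0.02, adjusted p = 0.018). The groups overlapped for all 3, and no call was lost when any 1 library was left out. Beside them, 8 of 8 oligodendrocyte genes were lower in Q175 (sums of 2935 to 3975 against 4356 to 5229 CPM), as were 5 of 11 immediate early genes, and their part in the result was not tested. Of all 16020 genes tested in cerebellum, 1300 were called lower. Of the 30 further regulators 4 rose and 3 fell (background 16.1%), with Tspan4 at -0.16, Ncor1 at 0.14 and Nono at 0.07.

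In hippocampus Nr1d1 had 58.6, 71.6 and 77.0 CPM in Q175 and 77.7, 87.8 and 94.0 in wild type, with no overlap (-0.30, SE 0.05, adjusted p = 0.0023). Per1 ran from 66.2 over 73.3 to 85.2 CPM in Q175 and from 75.4 over 94.5 to 126 in wild type (-0.36, SE 0.09, adjusted p = 0.037). Per3, with its pair of D-boxes, ran from 44.7 over 47.6 to 60.9 CPM in Q175 and from 54.9 over 58.6 to 70.8 in wild type (-0.29, SE 0.07, adjusted p = 0.025). The Nr1d1 call held without any 1 library. That of Per1 was lost without any of 11 of the 16 libraries (all but Q175 F2, M2 and M4 and WT F3 and M1, adjusted p up to 0.082) and that of Per3 without Q175 F4 or M3 or WT F2 or F4 (up to 0.058). Without the libraries Q175 F3 and F4, Nr1d1 kept an adjusted p of 0.0015, while Per1 stood at 0.151 and Per3 at 0.067. Of 12 immediate early genes 3 were lower in Q175, beside 423 of all 16298 genes. Of the further regulators Csnk1a1, a casein kinase gene, fell (-0.11).

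In gonadal white adipose 3 genes rose and 4 fell. Wee1 had 3.55, 6.26 and 11.4 CPM in Q175 and 1.74, 4.11 and 4.60 in wild type (0.97, SE 0.21, adjusted p = 0.0047). Nfil3, whose window holds the RORE shown above, had 5.35, 6.95 and 9.68 CPM in Q175 and 3.17, 4.56 and 5.60 in wild type (0.65, SE 0.15, adjusted p = 0.0052). Cipc had 33.8, 36.1 and 38.6 CPM in Q175 and 33.9, 46.5 and 59.9 in wild type (-0.35, SE 0.08, adjusted p = 0.0060). The groups overlapped for these 3, and their calls held without any 1 library.

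The other 4 calls in this tissue were weaker. Nr1d1 (-0.29, adjusted p = 0.035) ran from 156 over 202 to 235 CPM in Q175 and from 201 over 237 to 293 in wild type, and was lost without Q175 F2, F4 or M4 or WT F2, M2 or M4. Hlf (0.40, adjusted p = 0.045) ran from 15.5 over 36.1 to 64.3 against 10.9 over 20.7 to 45.8 CPM, and Rbm3 (-0.32, adjusted p = 0.047) from 140 over 164 to 208 against 141 over 209 to 259 CPM. Hlf was lost without any of 11 of the 15 libraries (all but Q175 F1, F2 and M4 and WT M4) and Rbm3 without any of 12 (all but Q175 M1 and WT F3 and M3), with adjusted p-values up to 0.103. Csnk1d (-0.13, adjusted p = 0.028) had 113, 123 and 132 CPM in Q175 and 128, 136 and 140 in wild type, was lost without WT F2 (0.051), and turned to 0.03 in the deposited FPKM.

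The slope of values on transcript length moved with genotype in gonadal white adipose, from 0.038 to 0.136 in 7 of 8 Q175 libraries (Q175 F1 -0.128) and from -0.140 to -0.047 in 6 of 7 wild-type libraries (WT M3 0.042), and its part in the result was not tested. Transcripts of other cells moved there too. The summed level of 8 epididymis genes lay between 97.2 and 3032 CPM in the 4 Q175 males and was at most 4.51 CPM in every other library of the tissue. In Q175, 2467 of all 16049 genes were called higher. Of the genes of microglia and macrophages 5 of 7 were higher (sums of 295.6 to 368.6 against 107.3 to 347.5 CPM). Of the genes of meningeal fibroblasts 6 of 7 were higher (2753 to 4209 against 1614 to 3239 CPM), beside the epididymis genes above. Their part in the result was not tested. In females alone Cipc kept an adjusted p of 0.049, and in males alone Wee1 stood at 0.049 and Nfil3 at 0.046. Of the 30 further regulators 4 rose and 8 fell (background 32.1%), with the smallest p-values for Csnk2a1 (-0.28), Hdac3 (-0.34), Gsk3a (-0.19) and Csnk1a1 (-0.21).

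In skin, with 8 Q175 and 6 wild-type libraries, 3 transcriptional repressor genes were called lower. Nfil3 had 3.72, 5.18 and 7.64 CPM in Q175 and 6.37, 7.76 and 48 in wild type (-1.40, SE 0.38, adjusted p = 0.046). Bhlhe40 had 49.3, 66.2 and 74.3 CPM in Q175 and 68.4, 83.4 and 98.8 in wild type (-0.36, SE 0.10, adjusted p = 0.045). Bhlhe41 had 9.45, 11.6 and 20 CPM in Q175 and 12.4, 18.4 and 32.9 in wild type (-0.69, SE 0.16, adjusted p = 0.028). All 3 overlapped, and leaving out 1 library ended the call of Bhlhe40 in 13 of 14 cases (all but WT F2), of Nfil3 in 10 (all but Q175 F2 and WT F1, F2 and M3) and of Bhlhe41 in 6 (Q175 F4, M1, M3 or M4, WT F3 or M2), with adjusted p-values up to 0.101. Without Q175 male D none of the 3 was called. Over the 4 tissues 6 of the 16 calls between genotypes were lost without this animal. Those outside skin were Per1 in hippocampus (adjusted p = 0.054) and Hlf (0.065) and Rbm3 (0.074) in gonadal white adipose. The change of Nfil3 was -0.99 without WT M1, and without both WT M1 and M2, the libraries that stood apart, it was -0.46 (adjusted p = 0.119), with Bhlhe40 at -0.36 (0.076) and Bhlhe41 at -0.63 (0.057). Of 7 epidermis genes 5 were higher in Q175, with sums of 34185 to 44623 CPM against 14559 to 30147 in wild type, and their part in the result was not tested. Of all 16482 genes tested in skin, 412 were called higher.

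Over all tissues together, limma with voom called 1 gene for an average Q175 change (background 2.72%), Bhlhe41 at -0.19 (SE 0.06, adjusted p = 0.048). Nr1d1 stood at -0.20 (SE 0.06, adjusted p = 0.056) and was below 0 in 10 of 11 tissues. Over the brain tissues 0 genes were called (3.65%), with 5 of 28 at an unadjusted p under 0.05, beside 3054 of 20662 genes. Over the other tissues voom called Bhlhe41 (-0.31, adjusted p = 0.0056) and Usp2 (-0.24, adjusted p = 0.038, background 7.38%). With 1 value per animal no gene was called over all tissues (0.276%), with 3 of 28 at an unadjusted p under 0.05, beside 2711 of 20662 genes. In brain Nr1d1 (-0.21, SE 0.05, adjusted p = 0.034) and Bhlhe40 (-0.20, SE 0.05, adjusted p = 0.044) fell with 1 value per animal (2.79%). These brain calls were not repeated with an animal or library left out. The voom call of Bhlhe41 over all tissues was lost without any of 10 of the 16 animals and that of Usp2 without any of 9, and the call of Bhlhe41 over the other tissues was lost without WT female C (-0.22, adjusted p = 0.053). The voom fit used 1 within-animal correlation of 0.032 for every gene. The gene's own value was 0.21 for Bhlhe41, 0.19 for Nr1d1 and 0.17 for Usp2, so their voom p-values may understate the variation between animals. For Nr1d1 in brain this was not seen, with an SE of 0.084 by voom and 0.05 with 1 value per animal.

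The Q175 change differed between tissues for 10 of 28 genes by the voom F-test (background 40.8%): Cipc, Wee1, Rora, Csnk1d, Arntl, Per3, Hlf, Nfil3, Bhlhe40 and Nr1d2. Between brain and the other tissues it differed for Hlf (-0.32, SE 0.09, adjusted p = 0.013) and Csnk1d (0.07, SE 0.02, adjusted p = 0.021), among 5.06% of all genes. The Hlf call was lost without Q175 male A or WT female A (adjusted p up to 0.066), and that of Csnk1d without Q175 female D, WT female C or WT male D (up to 0.063).

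Beyond genotype and sex, several genes of the list varied by animal, moving together in its tissues. The limma F-test of animal terms called 18 of 28 genes (background 25.9%). Cirbp had the highest F of the list at 23.1, rank 22 of 20662 genes, followed by Per2 (19.6, rank 40), Per1 (18.2, rank 47), Cry1 (13.9, rank 98), Ciart (11.6, rank 154) and Dbp (7, rank 456). The correlation of libraries from 1 animal was 0.67 for Cirbp, 0.63 for Per2 and 0.60 for Per1, against a median of 0.028 over all genes. Cry2, Rorb, Csnk1e and Npas2 had the lowest F, from 0.468 to 0.749.

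Per2 animal values ran from -1.02 in Q175 male C to 0.79 in Q175 female B, a 3.52-fold range, and Per1 values over a 2.34-fold range. Per2 lay below the mean of its genotype and sex in all tissues measured in Q175 female C (11 of 11), WT male D (11 of 11) and WT female C (10 of 10), and above it in WT female A (11 of 11) and WT male C (10 of 10). Cirbp, the cold-inducible gene, ran from -0.51 in WT male A to 0.42 in WT female C, a 1.90-fold range. It lay above its group mean in 11 of 11 tissues in Q175 female C and WT male D, and below in 11 of 11 in WT female A and WT male A. Csnk1d, by contrast, spanned a 1.06-fold range.

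Across the 16 animals, with values centred within genotype and sex, 8 relations were computed. Their genes were chosen after their values were seen, so the correlations are a description with no test, and the values of an animal share its libraries. Per1 went with Tsc22d3, a glucocorticoid-induced gene (Pearson r = 0.955, Spearman rho = 0.929). Without the 2 animals farthest from the median r was 0.936. Per1 also went with the glucocorticoid-induced genes Sgk1 (r = 0.948, rho = 0.894, r without 2 animals 0.921) and Fkbp5 (0.792, 0.826 and 0.814 in the same order). For Per1 with Per2 the values were 0.911, 0.876 and 0.863, and for Per2 with Cry1 0.755, 0.771 and 0.638. Cirbp went against the chaperone gene Hspa8 (r = -0.936, rho = -0.909, r without 2 animals -0.887), and against Hsph1 (-0.897, -0.903 and -0.811) and Hspa1b (-0.743, -0.794 and -0.708).

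**Figure D5:**
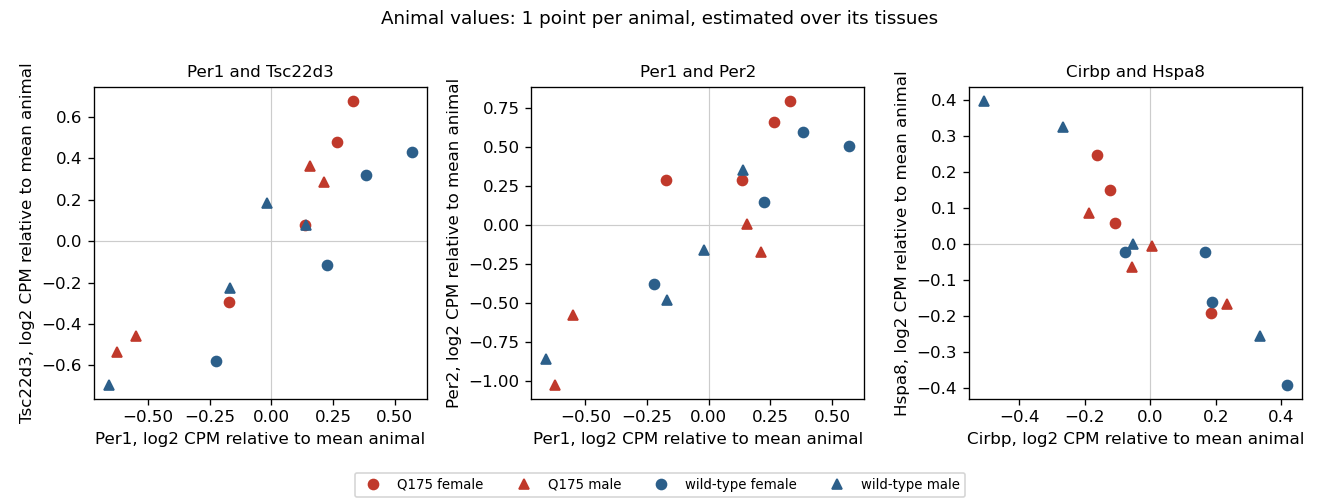
Animal values, the log2 CPM of an animal over its tissues relative to the mean animal, of Per1 against Tsc22d3, Per1 against Per2, and Cirbp against Hspa8. Each point is 1 of 16 animals, circles female and triangles male, red Q175 and blue wild type. The points rise together in the first 2 panels and fall in the last, with Per2 spanning -1.02 to 0.79.

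Within tissues, 3 pairs of genes were compared across animals, 33 relations in all, on log2 CPM centred within genotype and sex. Arntl and Dbp, which peak in opposite phases, had r from -0.89 to 0.117 with a median of -0.527, negative in 10 of 11 tissues, and 4 passed at an adjusted permutation p under 0.05. In intestinal white adipose r was -0.89 (permutation p = 0.00014, adjusted p = 0.0033, rho = -0.882, permutation p = 0.00015) and -0.76 without the 2 farthest libraries. Libraries of that tissue stood apart on the first principal component, as given above, and their part in this relation was not tested. Dbp and Nr1d1, both E-box targets, had r from 0.21 to 0.898 (median 0.578), and 5 passed, with skin at r = 0.898 (permutation p = 0.00106, adjusted p = 0.0117, rho = 0.864, permutation p = 0.00131) and 0.769 without 2 libraries. Rbm3 and Cirbp had r from 0.12 to 0.795 (median 0.662), and 7 passed, with cerebellum at r = 0.795 (permutation p = 0.00492, adjusted p = 0.0225, rho = 0.856, permutation p = 0.00189) and 0.759 without 2.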

How the data were processed

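RNA of 173 flash-frozen tissue samples was selected for polyadenylated transcripts and sequenced, per the labels' protocols, and CASAVA 1.8.2 is named in the submitters' processing notes. The aligner, counter, genome build and strand setting were not given in sources used here. The authors deposited 1 table of estimated counts per gene, in which 31.3% of nonzero values are not whole, and 1 table of FPKM. The written plan of the tests miscounted the brain and other tissues, and the fits used the 5 brain tissues, corpus callosum included, and the 6 others. The members and lists were chosen with earlier results of these data known.

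Estimated counts were rounded and, in each tissue, filtered (filterByExpr by genotype), scaled by TMM and fitted with edgeR 4.0.16 in R 4.3.3, by the robust quasi-likelihood F-test with genotype and sex. P-values were adjusted by Benjamini-Hochberg over all genes tested in the tissue, with a threshold of 0.05. Averages over tissues used limma 3.58.1 with voom, means by tissue, genotype and sex, and the animal as a correlated block. The correlation within an animal was 0.032 for every gene. The package statmod 1.5.0 served both edgeR and limma. Animal terms and 1 value per animal also used limma. Permutation tests of correlations drew 100000 resamples. Promoter windows came from RefSeq, and build GRCm38.p6 need not be that of the files.

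Every member is accounted for, each called member is named by tissue, and of the 30 further regulators at most 4 called genes a tissue are named, by smallest p. One gene of that list is not reported here. Lists of other cells are given as counts and summed CPM. The alternatives were RLE scaling, no filter, no sex term, a replicate block, a library code as a covariate and DESeq2 1.42.0. Further ones were log2 FPKM with a pseudocount of 1 or 0.1, voom over all tissues, and leaving out libraries. The library code was the L number of library names that also hold a D number, and all other libraries of a tissue shared 1 level. The meaning of the L number is not stated. Added after the data were seen were each sex and each genotype alone, all settings of the sex difference, the libraries left out in skin and corpus callosum, 1 value per animal and the average sex difference.

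Each library of a tissue is a separate animal, and library totals were 27978166 to 48018644 counts. On simulated data with known changes, in which 100 genes changed 1.5-fold and 100 changed 2-fold, edgeR recovered 86 and 98 in cerebellum, 82 and 99 in hippocampus, 61 and 82 in gonadal white adipose, 44 and 85 in skin and 19 and 62 in intestinal white adipose.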

Additional observations from a re-analysis of the deposited data

Results flagged for a closer look

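Of 112 groups of samples tested for a single value far from the others, 5 held one, and chance gives about 1 in 20 groups. In hippocampus Nr1d1 of Q175 male C stood at 58.6 CPM, below the next Q175 library at 68.8, and Bhlhe41 of WT male C at 38.1 CPM, above the next male library at 34.5. In intestinal white adipose Hlf of WT female C stood at 95.2 CPM, above the next female at 51.8. Among animal values, Cirbp of Q175 female C stood at 0.18 against -0.11 for the next Q175 female, and Cry1 of WT female C at -0.37 against 0.16 for the next wild-type female.

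The Q175 change differed between tissues by the voom F-test for 10 of 28 genes, a smaller share than the 40.8% of all genes called by that test: Cipc (adjusted p = 1.22e-06), Wee1 (6.59e-05), Rora (0.00039), Csnk1d (0.00059), Arntl (0.0027), Per3 (0.011), Hlf (0.011), Nfil3 (0.023), Bhlhe40 (0.024) and Nr1d2 (0.031). Between brain and the other tissues it differed by -0.32 for Hlf and by 0.070 for Csnk1d on the log2 scale.

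The difference between males and females, in brain minus that in the other tissues and with 1 value per animal, was -0.32 for Clock, -1.42 for Arntl and -1.28 for Npas2. It was 0.81 for Per2, 0.79 for Per3, 0.29 for Nr1d2, 0.53 for Tef, 0.94 for Hlf and 0.67 for Wee1.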

How the results depend on the processing

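Counts of called genes moved by over 1.5 times as follows. Between genotypes, cerebellum went from 3 to 5 with the replicate block, 9 with the library code, 7 by DESeq2 and 0 by voom. Hippocampus went from 3 to 1 with the code, 5 by DESeq2, 1 without libraries that stand apart, 0 in females, 1 in males and 0 by voom. Gonadal white adipose went from 7 to 4 without the sex term, 3 with the block, 0 with the code, 2 in females, 2 in males and 3 by voom. Skin went from 3 to 1 with no filter, 0 with the block, 0 with the code, 6 by DESeq2, 2 without WT M1 and M2 (none of the 3), 0 and 0 in FPKM plus 1 and plus 0.1, 1 in females, 0 in males, 0 without the Q175 male with wild-type Abhd1 and 11 by voom. From 0, brainstem went to 1 in FPKM plus 1, and by voom hypothalamus/thalamus to 1, brown adipose to 1 and intestinal white adipose to 7.

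Between the sexes, brainstem went from 4 to 2 with the code, 9 by DESeq2, 2 and 2 in FPKM, 0 in wild type, 2 in Q175 and 1 without the Q175 male with wild-type Abhd1. Cerebellum went from 8 to 2 with the code, 2 in wild type and 5 in Q175. Hippocampus went from 3 to 0 with the code, 1 and 1 in FPKM, 0 in wild type, 0 in Q175 and 0 without that male. Hypothalamus/thalamus went from 1 to 2 by RLE, 0 with the code, 4 by DESeq2, 2 without libraries that stand apart, and 0 in wild type and 0 in Q175. Corpus callosum went from 3 to 8 by DESeq2, 0 in wild type and 0 in Q175. Intestinal white adipose went from 2 to 1 with no filter, 0 with the code, 6 by DESeq2, 4 in FPKM plus 0.1, 0 in wild type, 0 in Q175 and 0 without that male. In wild type alone brown adipose went from 12 to 0, gonadal white adipose from 17 to 8, gastrocnemius from 11 to 4 and to 2 in Q175, and heart from 17 to 8 and to 8 in Q175. Skin went from 8 to 0 with the code, 0 in wild type, 0 in Q175, 2 without that male and 5 without WT M1 and M2, which stand apart. With 1 value per animal the average Q175 change went from 1 to 0 over all tissues, 0 to 2 in brain, 2 to 0 in the others and 2 to 0 between them. The cause was not tested. Wild-type or Q175 libraries alone hold fewer samples.

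Same-numbered replicates did not deviate together (85 pairs, correlations from -0.454 to 0.743, median -0.090, 18 over 0.1), so the numbers do not pair the samples. In intestinal white adipose 5 of 8 pairs were over 0.1 (median 0.297). With the replicate block no gene was called in skin, and in gonadal white adipose Nr1d1 (adjusted p = 0.115), Hlf (0.117), Csnk1d (0.089) and Rbm3 (0.075) lost their call.

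Csnk1d in gonadal white adipose turned from -0.13 to 0.035 and 0.036 in FPKM plus 1 and plus 0.1, where the median of all genes moved by up to 0.15. In the wild-type comparison of brain with other tissues, FPKM plus 1 turned Per1 to 0.21, Per3 to 0.0014, Nr1d2 to 0.37, Tef to 0.47, Nfil3 to 0.10, Bhlhe40 to 0.24 and Usp2 to 0.034.

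Leaving out 1 library gave 3 to 7 calls between genotypes in cerebellum, 1 to 4 in hippocampus, 3 to 7 in gonadal white adipose, 0 to 4 in skin, 0 to 1 in brown adipose and 0 to 0 elsewhere. Between the sexes it gave 1 to 4 in brainstem, 8 to 10 in cerebellum, 0 to 3 in hippocampus, 0 to 3 in hypothalamus/thalamus, 2 to 4 in corpus callosum, 8 to 13 in brown adipose, 12 to 18 in gonadal white adipose, 0 to 2 in intestinal white adipose, 8 to 11 in gastrocnemius, 13 to 17 in heart and 2 to 9 in skin. Leaving out 1 animal gave 0 to 3 genes for the average Q175 change, 0 to 1 in brain, 1 to 4 in other tissues, 1 to 3 between them, 15 to 18 for animal terms and 10 to 15 for the average sex difference. Depth limits the folds of Npas2 in brown adipose and gastrocnemius, where the female medians were 0.102 and 0.213 CPM.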
